A study of Rattus norvegicus with 6 samples.

Results

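The genes described here are 10 factors that keep, mark or end the spermatogonial state. They are Zbtb16, Sall4, Id4, Nanos2, Nanos3 and Uchl1 of undifferentiated spermatogonia, Dmrt1, Sohlh1 and Sohlh2 of the transition to differentiating spermatogonia, and Stra8 of the last step before meiosis. The members were chosen as the rows of the deposited gene table whose symbol equals a listed name, and each of the 10 symbols was found in exactly 1 of 35291 rows. RNA-Seq was made from testis of 6 Sprague-Dawley rats. Those labelled DM (3 diabetic rats) had been fed a high-fat diet and then injected once with streptozotocin (STZ), a toxin of pancreatic beta cells, and their testes were taken 8 weeks later. The 3 non-diabetic rats, labelled Nor and called ND below, were injected with citrate buffer. The paper's methods do not say whether they received the same diet, so diet and STZ cannot be told apart, and the rats' ages are not given. The question was which of these genes differ in level between DM and ND testes.

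Spermatogenesis starts from a small pool of undifferentiated spermatogonia on the basement membrane of the seminiferous tubule, which either renew themselves or respond to retinoic acid and enter a series of differentiating divisions. ZBTB16 (also called PLZF), SALL4 and ID4 are nuclear regulators of the undifferentiated state, and NANOS2 and NANOS3 are RNA-binding repressors of translation. SOHLH1 and SOHLH2 are basic helix-loop-helix transcription factors needed for differentiation, and STRA8 is induced by retinoic acid when meiosis begins. Since each value comes from whole testis, in which spermatocytes and spermatids outnumber spermatogonia, fewer cells of a type and less RNA per cell cannot be told apart.

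Upstream sequence was printed for the members that the results below turn on. They are Uchl1 and Sohlh2, whose values in DM rats all lay above those in ND rats, Sohlh1 as the partner of Sohlh2, and Stra8 as the retinoic acid target. The 250 bases before the RefSeq start site are given 5′ to 3′ on the gene's own strand, from assembly GRCr8, which may not be the build behind the deposited values. A promoter was listed for 8 of the 10 members, all but Zbtb16 and Sall4. In the first 3 sequences capitals mark the E-box CANNTG, the hexamer that basic helix-loop-helix proteins bind, which reads the same on both strands. In the last sequence they mark AGGTCA, the hexamer found in retinoic acid response elements, searched on both strands.
Uchl1, chr14:41849418-41849667, minus strand: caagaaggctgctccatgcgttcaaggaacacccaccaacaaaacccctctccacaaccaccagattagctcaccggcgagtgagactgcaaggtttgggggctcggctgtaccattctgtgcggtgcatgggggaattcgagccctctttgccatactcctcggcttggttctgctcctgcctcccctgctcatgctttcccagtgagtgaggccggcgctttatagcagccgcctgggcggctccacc
Sohlh2, chr2:141512160-141512409, plus strand: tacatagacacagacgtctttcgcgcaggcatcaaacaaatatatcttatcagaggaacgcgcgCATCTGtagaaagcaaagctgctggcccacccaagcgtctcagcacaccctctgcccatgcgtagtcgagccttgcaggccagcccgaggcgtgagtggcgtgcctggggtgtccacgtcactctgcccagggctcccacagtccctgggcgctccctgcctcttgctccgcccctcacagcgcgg
Sohlh1, chr3:29065589-29065838, minus strand: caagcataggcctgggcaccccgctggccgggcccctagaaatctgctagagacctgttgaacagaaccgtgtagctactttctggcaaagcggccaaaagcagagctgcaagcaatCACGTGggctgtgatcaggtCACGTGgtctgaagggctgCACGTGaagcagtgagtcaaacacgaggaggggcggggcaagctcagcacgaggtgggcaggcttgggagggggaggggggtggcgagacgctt
Stra8, chr4:64568330-64568579, plus strand: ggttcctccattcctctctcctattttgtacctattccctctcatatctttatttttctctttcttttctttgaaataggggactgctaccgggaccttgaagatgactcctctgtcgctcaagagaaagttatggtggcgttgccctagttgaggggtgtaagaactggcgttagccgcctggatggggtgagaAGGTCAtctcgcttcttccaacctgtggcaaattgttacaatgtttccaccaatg

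The upstream window of Sohlh1 held 3 E-boxes, beginning 133, 113 and 94 bases before the start, and each of them read CACGTG. At least 3 copies of CANNTG were found in 11.5% of the 33469 promoters of this length. At least 3 copies of the narrower CACGTG were found in 17 of them, or 0.0508%, and at least 1 copy in 5.59%. No other form of CANNTG was counted apart from the rest. The Sohlh1 window was 61.2% G or C, beside a median of 51.2% over all promoters. The middle copy overlapped an AGGTCA hexamer that began 117 bases before the start. The window of Sohlh2 held 1 E-box, CATCTG, 186 bases before the start, and that of Uchl1 held none, while 65.5% of all promoters held at least 1 CANNTG. The Stra8 window held 1 AGGTCA, 55 bases before the start, as compared with 14.1% of all promoters with at least 1. These matches are letters in a window and do not show binding.

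The level of the members covered a wide range. Levels are in FPKM, which scale a gene's fragments to transcript length and library size, so that genes can be compared with each other. The mean over the 6 rats was highest for Uchl1 at 42.4 FPKM, followed by Id4 at 12.8, Sohlh2 at 5.98, Stra8 at 5.32, Dmrt1 at 4.02, Zbtb16 at 1.46, Sohlh1 at 0.931, Nanos2 at 0.525, Nanos3 at 0.394 and Sall4 at 0.223 FPKM. Uchl1 stood above Id4, Id4 above Sohlh2 and Dmrt1 above Zbtb16 in each of the 6 rats, and the ranges of these neighbours did not overlap. The ranges of the other neighbours overlapped. Sohlh2 was above Stra8 in 4 of 6 rats, and Nanos2 above Nanos3 in 4 of 6 rats. Tested were the 20338 genes whose mean reached 0.5 FPKM, and Uchl1 lay above 89.4% of them and Nanos2 above 0.826%. Nanos3 and Sall4 lay under that filter, so 8 of the 10 members were tested. Nanos2 passed it only through the DM rats, with a mean of 0.609 FPKM in DM and 0.440 FPKM in ND rats.

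**Figure D1:**
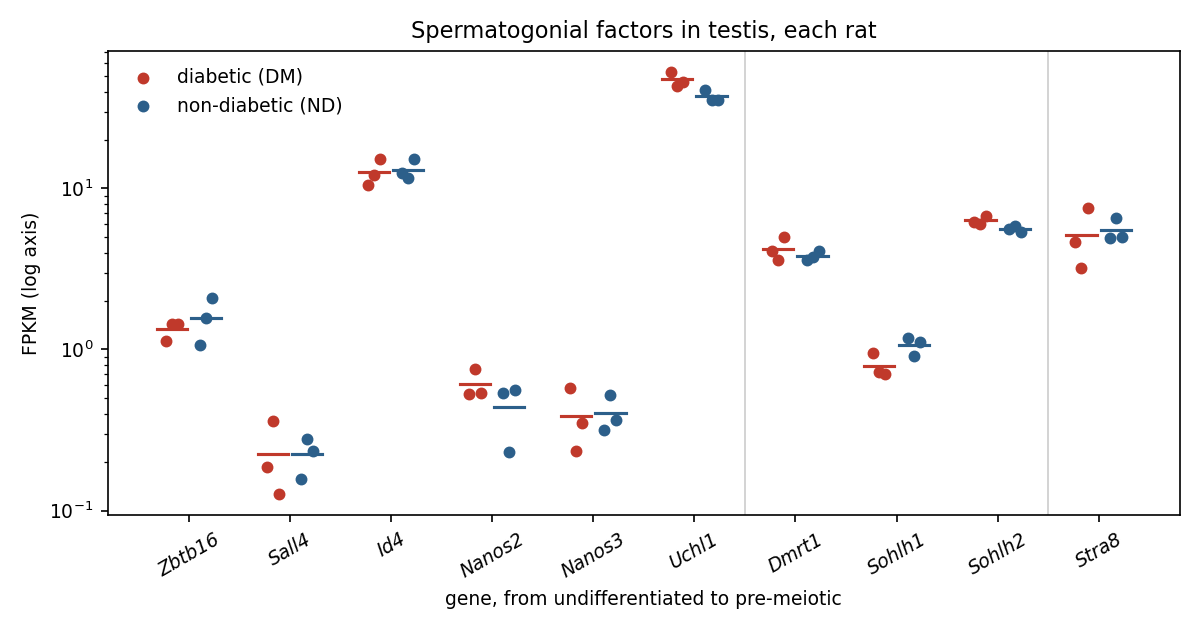
FPKM of each spermatogonial factor on a log axis, with 1 point for each rat, DM in red and ND in blue, and a line at the mean of 3 rats. The DM points of Uchl1 and Sohlh2 lie above all ND points, and the points of the other 8 genes overlap between the groups.

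None of the 8 members tested met the criterion, while 1.24% of all genes tested did. The criterion was a difference of 2-fold or more in either direction (1 on the log2 scale) together with p below 0.05 before adjustment. The paper applied these cut-offs to DESeq2 results and does not say whether its p was adjusted. Here the p-value came from limma, so the calls are not those of the paper. After Benjamini-Hochberg adjustment over all genes, 0 members and 0.0344% of all genes were below 0.05 in limma, and the adjusted p-values of the members ran from 0.485 to 0.967. The unadjusted p-value was below 0.05 for 1 member, Uchl1, or 1 of 8, beside 7.46% of all genes. DM and ND values were fully separate for 2 members, Uchl1 and Sohlh2, beside 13.0% of all genes. For both, all DM values lay above all ND values, as they did for 4.56% of all genes. The log2 fold change, taken as DM minus ND on log2(FPKM + 0.1), was above 0 for 4 members and below 0 for the other 4, with a median of 0.036 as compared with -0.021 over all genes. The 95% interval stayed within a 2-fold difference for 7 of the 8 members, so a larger difference lay outside it for all but Nanos2. With 3 rats against 3, the smallest p-value of an exact permutation test is 0.1.

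**Figure D2:**
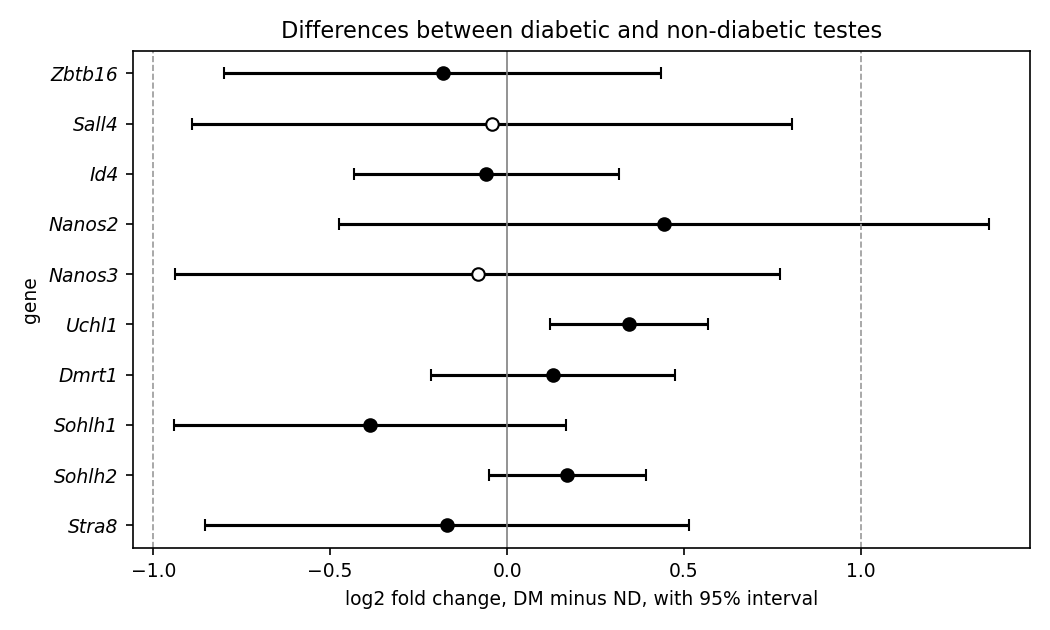
Log2 fold change of each member, DM minus ND, with its 95% interval from limma. Filled points are the 8 members tested, open points are Sall4 and Nanos3 from the fit without the filter, and dashed lines mark a 2-fold difference. Only the interval of Uchl1, from 0.12 to 0.57, lies clear of 0.

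Uchl1 (ENSRNOG00000002343) encodes ubiquitin carboxy-terminal hydrolase L1, an abundant deubiquitinating enzyme of spermatogonia and also of neurons. It was at 53.0, 43.5 and 46.1 FPKM in the DM rats and at 40.9, 35.6 and 35.6 FPKM in the ND rats. The lowest DM rat thus lay above the highest ND rat. Uchl1 averaged 47.5 ± 4.91 FPKM in DM and 37.3 ± 3.07 FPKM in ND rats (SD, n = 3 each), so the DM mean was 27.2% above the ND mean. On the log2 scale the difference was 0.34 (standard error 0.095), and its 95% interval corresponded to a ratio between 1.09 and 1.48. The unadjusted p-value from limma was 0.00805 and the adjusted p-value was 0.485, and an exact permutation test gave p = 0.1, the smallest possible. Leaving out any single rat gave an unadjusted p-value from 0.00518 to 0.0299. Summed over the 10 members, the level was 71.9 to 83.8 FPKM in the DM rats and 66.9 to 70.8 FPKM in the ND rats. Without Uchl1 the sum was 28.5 to 37.7 FPKM and 29.9 to 34.0 FPKM, so that the groups overlapped.

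Zbtb16 (ENSRNOG00000029980), a zinc finger repressor needed for self-renewal, was at 1.13, 1.45 and 1.43 FPKM in the DM rats and at 1.07, 1.57 and 2.08 FPKM in the ND rats. All DM values lay inside the range of the ND rats. Zbtb16 had a log2 fold change of -0.18 with a 95% interval from -0.80 to 0.43, and limma gave an adjusted p-value of 0.928. Without ND rat 3, the rat with the highest Zbtb16, it was 0.030.

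Id4 (ENSRNOG00000016099) encodes a helix-loop-helix protein without a DNA-binding region and marks the spermatogonial stem cell. It was at 10.5, 12.1 and 15.2 FPKM in the DM rats and at 12.4, 11.6 and 15.2 FPKM in the ND rats. The highest rats of the groups were nearly equal, and Id4 averaged 12.6 ± 2.42 FPKM in DM and 13.1 ± 1.90 FPKM in ND rats (SD, n = 3 each). For Id4 the log2 fold change was -0.058, with a 95% interval from -0.43 to 0.32 (adjusted p = 0.967 from limma).

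Nanos2 (ENSRNOG00000038088), whose product holds male germ cells in the undifferentiated state, was at 0.533, 0.759 and 0.536 FPKM in the DM rats and at 0.535, 0.230 and 0.557 FPKM in the ND rats. In 4 of the 6 rats it lay between 0.533 and 0.557 FPKM, while DM rat 2 was higher and ND rat 2 lower. Its log2 fold change of 0.44 had the widest interval among the members tested, from -0.47 to 1.36 (adjusted p = 0.874 from limma). The value rested on ND rat 2, without which it was 0.12, and with a pseudocount of 1 in place of 0.1 it was 0.17. Nanos3 (ENSRNOG00000031593), its paralog, was at 0.578, 0.234 and 0.348 FPKM in the DM rats and at 0.317, 0.523 and 0.364 FPKM in the ND rats. The DM rats held both the highest and the lowest value of Nanos3. Without the filter on low genes the log2 fold change of Nanos3 was -0.083, with a 95% interval from -0.94 to 0.77.

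Sall4 (ENSRNOG00000050035), which encodes a zinc finger factor of undifferentiated spermatogonia, was the lowest member. It was at 0.187, 0.358 and 0.127 FPKM in the DM rats and at 0.157, 0.277 and 0.235 FPKM in the ND rats. The group means were equal within the spread, at 0.224 ± 0.120 FPKM and 0.223 ± 0.0608 FPKM (SD, n = 3 each). Without the filter its log2 fold change was -0.044, with a 95% interval from -0.89 to 0.80. RefSeq lists a Sall4 pseudogene, and reads shared with it could have been assigned to either gene.

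Dmrt1 (ENSRNOG00000016075) encodes a DM-domain transcription factor that keeps spermatogonia in mitosis and is also made by Sertoli cells. Dmrt1 was at 4.09, 3.57 and 5.02 FPKM in the DM rats and at 3.62, 3.76 and 4.09 FPKM in the ND rats. The DM rats held both the lowest and the highest value of Dmrt1. For Dmrt1 the log2 fold change was 0.13, with a 95% interval from -0.22 to 0.47 (adjusted p = 0.913 from limma). Without DM rat 3, the rat with the highest Dmrt1, it was 0.00097.

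Sohlh1 and Sohlh2 code for partners that can form a dimer, and their values differed in direction. Sohlh2 (ENSRNOG00000038091) was at 6.19, 6.04 and 6.78 FPKM in the DM rats and at 5.62, 5.88 and 5.36 FPKM in the ND rats. Every DM rat was above every ND rat, and the spread of Sohlh2 within a group was the smallest of all members, with a coefficient of variation of 6.11% in the DM and 4.57% in the ND rats. Sohlh2 averaged 6.34 ± 0.387 FPKM in DM and 5.62 ± 0.257 FPKM in ND rats (SD, n = 3 each), a difference of 12.8%. In log2 units the difference was 0.17 with a 95% interval from -0.051 to 0.39, limma gave an adjusted p of 0.768, and the exact permutation test gave p = 0.1.

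Sohlh1 (ENSRNOG00000033983) was at 0.953, 0.725 and 0.707 FPKM in the DM rats and at 1.18, 0.910 and 1.11 FPKM in the ND rats. DM rats 2 and 3 lay below every ND rat, and DM rat 1 lay inside the ND range. Sohlh1 averaged 0.795 ± 0.137 FPKM in DM and 1.07 ± 0.142 FPKM in ND rats (SD, n = 3 each). Sohlh1 had a log2 fold change of -0.39 with a 95% interval from -0.94 to 0.17 (adjusted p = 0.801 from limma). Within a rat, the ratio of Sohlh2 to Sohlh1 does not depend on how the library was scaled. It was 6.50, 8.34 and 9.59 in the DM rats and 4.75, 6.46 and 4.83 in the ND rats. The lowest DM ratio and the highest ND ratio nearly touched. This ratio was chosen after the values were seen and was not tested.

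Stra8 (ENSRNOG00000010573), the gatekeeper of meiosis, was at 4.65, 3.22 and 7.53 FPKM in the DM rats and at 4.95, 6.56 and 4.99 FPKM in the ND rats. DM rats 1 and 2 lay below all ND rats and DM rat 3 above them. The coefficient of variation of Stra8 was 42.8% in the DM rats and 16.7% in the ND rats, and this difference in spread was not tested. Stra8 had a log2 fold change of -0.17 with a 95% interval from -0.85 to 0.51 (adjusted p = 0.942 from limma). Without DM rat 2 it was 0.12.

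To follow the order from undifferentiated to pre-meiotic cells, members were also set against Zbtb16 within each rat. The ratio of Stra8 to Zbtb16 was 4.12, 2.22 and 5.25 in the DM rats and 4.61, 4.18 and 2.40 in the ND rats. The groups overlapped almost entirely. The ratio of Sohlh2 to Zbtb16 was 4.17 to 5.49 in the DM and 2.58 to 5.24 in the ND rats, and that of Sohlh1 to Zbtb16 was 0.493 to 0.844 and 0.534 to 1.10. The ratio of Nanos2 to Nanos3 was 0.922, 3.24 and 1.54 in the DM rats and 1.69, 0.439 and 1.53 in the ND rats, so it crossed 1 in both groups.

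**Figure D3:**
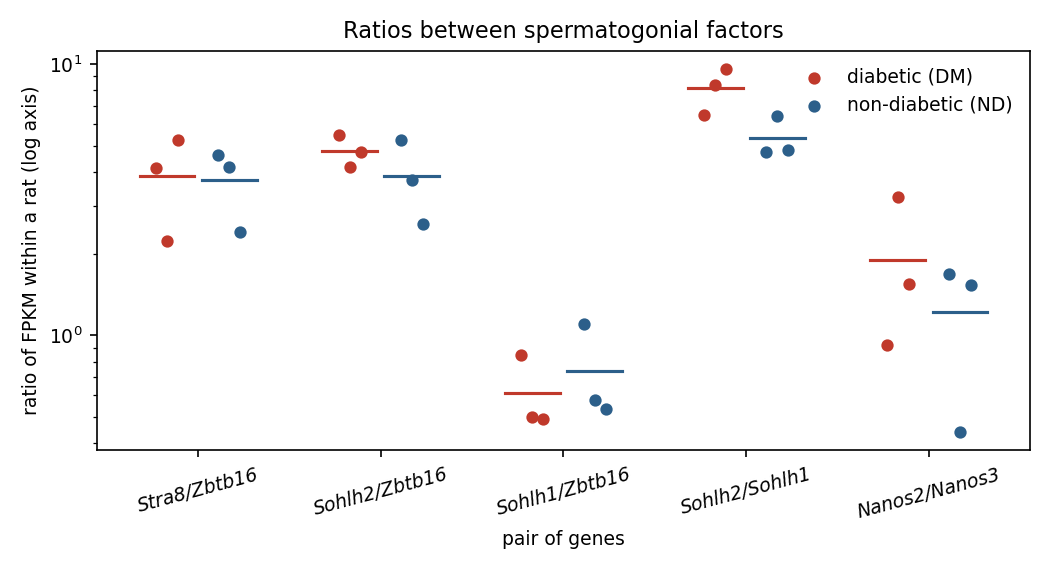
Ratio of FPKM between pairs of members within each rat on a log axis, with 1 point for each rat, DM in red and ND in blue, and a line at the mean of 3 rats. The ratio of Sohlh2 to Sohlh1, 6.50 to 9.59 in DM and 4.75 to 6.46 in ND rats, is the only pair of the 5 plotted whose groups do not overlap. That ratio was chosen after the values were seen, from a gene with a higher and a gene with a lower DM mean, and was not tested.

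Other genes of the same stages were compared in the same fit. Of 18 further genes of undifferentiated spermatogonia, which include the receptor genes Gfra1 and Ret, 8 were tested. None of these 8 passed the criterion or had an unadjusted p-value below 0.05 from limma, and their log2 fold changes ran from -0.23 to 0.19 with a median of 0.014. The highest of them was Etv5, a transcription factor induced by GDNF, at 4.94 ± 0.0614 FPKM in the DM and 5.10 ± 0.360 FPKM in the ND rats (SD, n = 3 each), which is -0.044 on the log2 scale. Tspan8, a tetraspanin gene, had the largest log2 fold change of these 8 genes in absolute value, -0.23 (adjusted p = 0.905 from limma).

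Of 10 further genes of differentiating spermatogonia, 9 were found in the table and 8 were tested. None passed the criterion, and the median log2 fold change was -0.035. An unadjusted p-value below 0.05 from limma was reached by 1 of the 8, Kit, beside 7.46% of all genes. Kit is named here because of its value. Kit encodes the receptor of stem cell factor and is also made by Leydig cells. It was at 3.78, 3.61 and 3.18 FPKM in the DM rats and at 4.45, 4.33 and 4.24 FPKM in the ND rats, with an adjusted p-value of 0.635 from limma. All DM values of Kit lay below all ND values, as they did for 3 of the 8 genes, beside 8.42% of all genes. Dmrtb1, which controls the passage from mitosis to meiosis, was the highest gene of the list at 38.8 ± 4.25 FPKM and 35.1 ± 0.957 FPKM (SD, n = 3 each), a difference of 0.14 on the log2 scale. Ccnd1, which encodes cyclin D1, had the largest log2 fold change of the 8 in absolute value, -0.54 (adjusted p = 0.709 from limma).

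Of 14 genes of meiotic entry, 13 were found and tested, and none passed the criterion or had an unadjusted p-value below 0.05 from limma. The median log2 fold change of the 13 genes was -0.030, with 10 below 0 and 3 above 0. The cohesin gene Stag3 was the highest, at 145 ± 6.49 FPKM in the DM and 148 ± 2.57 FPKM in the ND rats (SD, n = 3 each). Prdm9, which sets the sites of recombination, had the largest log2 fold change in absolute value, -0.35 (adjusted p = 0.778 from limma). It was at 0.959 ± 0.115 FPKM in the DM and 1.24 ± 0.0275 FPKM in the ND rats (SD, n = 3 each). All DM values of Prdm9 lay below all ND values, as they did for 1 of the 13 genes, beside 8.42% of all genes.

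**Figure D4:**
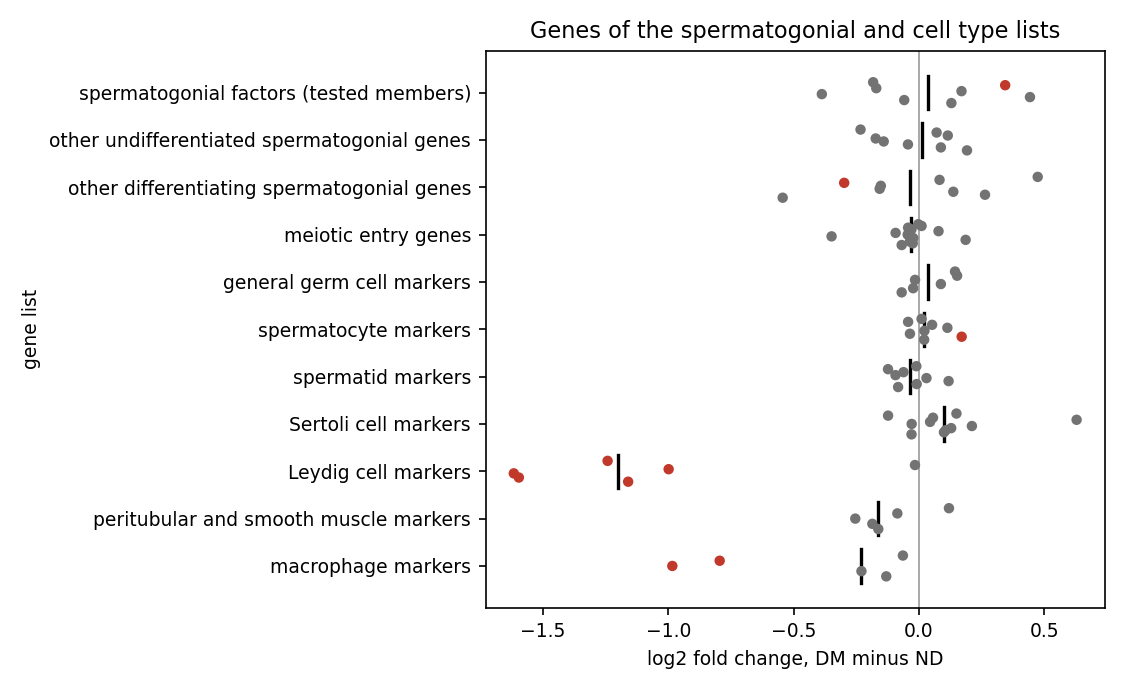
Log2 fold change, DM minus ND, of each gene tested in the spermatogonial, meiotic and cell type lists, with a black line at the list's median and genes with an unadjusted p-value below 0.05 in red. The spermatogonial and germ cell lists lie around 0, with medians between -0.036 and 0.036, and 5 of the 6 Leydig cell markers lie lower, with a median of -1.20 over the 6, while Nr5a1 lies at -0.016.

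Defining markers of testis were present in every rat, as the label of the tissue requires. Mael, a gene of the piRNA pathway and the highest of the 6 general germ cell markers, was at 470 to 525 FPKM in the DM and 492 to 508 FPKM in the ND rats. The general germ cell markers summed to 818 to 890 FPKM and 824 to 859 FPKM, the 8 spermatocyte markers to 1133 to 1198 FPKM and 1103 to 1224 FPKM, and the 12 Sertoli cell markers to 366 to 386 FPKM and 319 to 394 FPKM. These sums overlapped between the groups, as did those of the 8 spermatid markers and of the 5 peritubular and smooth muscle markers. A sum is weighted toward its most abundant genes, such as Clu of the Sertoli list at 210 to 272 FPKM. Of the 11 Sertoli cell markers tested, 8 had a log2 fold change above 0 and 3 below, with a median of 0.10. Within these lists 3 genes were higher in every DM rat than in every ND rat, beside 4.56% of all genes. They were Ccna1, a cyclin gene of spermatocytes, at 78.4 to 84.6 FPKM in the DM and 69.0 to 76.2 FPKM in the ND rats, Tex14, a gene of the bridges between germ cells, at 42.8 to 48.6 FPKM and 38.3 to 42.3 FPKM, and Wt1, a Sertoli cell factor gene, at 13.0 to 13.9 FPKM and 11.9 to 12.4 FPKM. Tex14 and Wt1 are named because of their values. In the other direction 1 gene, Des of the peritubular list, was lower in every DM rat, beside 8.42% of all genes. Des averaged 2.78 ± 0.191 FPKM in the DM and 3.35 ± 0.496 FPKM in the ND rats (SD, n = 3 each). Ccna1 had an unadjusted p-value below 0.05 and an adjusted p-value of 0.613 from limma. Some genes, such as Sycp1 and Sycp3, stand in more than 1 of these lists.

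The Leydig cell markers, genes of the testosterone-producing cells between the tubules, were lower in the DM rats for 5 of the 6 found. The 6 markers found summed to between 30.7 and 58.2 FPKM in the DM rats and to between 84.4 and 119 FPKM in the ND rats, with none of them at 0 in all rats. Of these 6, 4 met the criterion, beside 1.24% of all genes, and all 4 were lower in DM rats. They were Cyp17a1, Cyp11a1, Star and Insl3. After adjustment in limma 1 of the 6, Cyp17a1, was below 0.05 (adjusted p = 0.0415), beside 0.0344% of all genes. Lhcgr, the receptor gene for luteinizing hormone, was at 2.29 to 2.32 FPKM in the DM and 4.45 to 5.03 FPKM in the ND rats, just short of the criterion. Nr5a1, which encodes the steroidogenic factor SF-1, was at 3.29 ± 0.559 FPKM in the DM and 3.32 ± 0.458 FPKM in the ND rats (SD, n = 3 each), which is -0.016 on the log2 scale. Lhcgr and Nr5a1 are named because of their values. Of the 5 macrophage markers, 2 had an unadjusted p-value below 0.05 from limma, beside 7.46% of all genes. Both were lower in the DM rats. The list summed to 25.6 to 30.8 FPKM in the DM and 30.4 to 31.9 FPKM in the ND rats. The part of these markers in the values of Uchl1, Sohlh2 and Kit was not tested.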

How the data were processed

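Total RNA of testis from 3 DM and 3 ND rats was sequenced in paired-end mode. The authors checked reads with FastQC, compared them with rRNA by BWA, aligned them with STAR and assembled transcripts with StringTie, as the paper's methods and the labels state. The deposited values are FPKM per gene, as the authors calculated them. Versions, genome build and strand setting are not given in the sources used here. FPKM are not counts, so the depth is unknown in fragments. By the commonest ratio among values under 1 FPKM, relative depth was 0.966 to 1.09 of the mean in the DM and 0.894 to 1.02 in the ND rats. Strand is not stated, so antisense reads could not be told apart.

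A gene was tested where its mean in the 6 rats reached 0.5 FPKM, on log2(FPKM + 0.1) with limma 3.58.1 (lmFit, eBayes with trend) under R 4.3.3. The test was two-sided and adjusted by Benjamini-Hochberg over all genes tested. Exact permutation tests were two-sided (scipy 1.17.1). The paper's DESeq2 screen needs counts and was not repeated. The scale of log2(FPKM + 0.1) understates differences of low genes. Each p-value from limma sets the difference between groups against the spread of rats within a group. That spread is drawn toward a trend over all genes tested. Values with over 6 decimals, which sums would have, stood for Dmrt1 in 6 rats and for Sall4 in 2 rats.

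Members and lists were chosen with earlier results of these data known. All members are named. The other spermatogonial, the meiotic entry and the Leydig cell lists followed a rule, with exceptions marked. It named the gene with the highest mean, the gene with the largest absolute log2 fold change and genes past the criterion. The remaining cell type lists are given mainly as counts and summed levels, and not all genes under that rule were named. Among those left out were Rhox5 of the Sertoli list, with a log2 fold change of 0.63, and Cd68 of the macrophage list, with -0.98. Their adjusted p-values from limma were 0.894 and 0.629. For the member with the largest absolute log2 fold change, the 3 closest genes were also named.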

Additional observations from a re-analysis of the deposited data

How the results depend on the processing

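Other fits used a pseudocount of 1 or of 0.01, dropped the filter or raised it to 1 FPKM, scaled each rat to TPM or by the median ratio, left the trend out of eBayes, took the replicate number as a block, summed genes sharing a symbol, or left out 1 rat. The count of members past the criterion was 0 and that at an adjusted p-value below 0.05 was 0 in every fit run. The count at an unadjusted p-value below 0.05 was 1 in every fit but eBayes without the trend, where it was 2, with Sohlh1 at 0.0444 beside Uchl1. Nanos2 and Sohlh1 did not reach a mean of 1 FPKM, and Nanos2 did not pass the filter without DM replicate 2. With each rat left out, the log2 fold change ranged from -0.42 to 0.030 for Zbtb16, from -0.20 to 0.066 for Id4 and from -0.48 to 0.12 for Stra8, so that the sign changed. It changed without ND replicate 3 for Zbtb16, without DM replicate 1 or ND replicate 3 for Id4, and without DM replicate 2 for Stra8. For the other members tested it kept its sign, from 0.26 to 0.41 for Uchl1, 0.12 to 0.20 for Sohlh2, -0.51 to -0.32 for Sohlh1, 0.12 to 0.62 for Nanos2 and 0.00097 to 0.24 for Dmrt1. The lowest value of Nanos2 came without ND replicate 2 and that of Dmrt1 without DM replicate 3. With a pseudocount of 1, Nanos2 was at 0.17, below Uchl1 at 0.34. The groups share replicate numbers but not animals, and deviations of same-numbered rats correlated at 0.106, 0.0153 and 0.0979. With the replicate block the count at an unadjusted p-value below 0.05 was 1, and the adjusted p-value of Uchl1 was 0.38. The cause of these changes was not tested. Nanos2, Nanos3 and Sall4 were below 1 FPKM in every rat, and their intervals were the widest of the 10.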

Other observations

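Nanos2 had the largest absolute log2 fold change of the members tested at a pseudocount of 0.1, though not at a pseudocount of 1 or without ND rat 2. It passed the filter of 0.5 FPKM only through the DM rats, with a mean of 0.609 FPKM beside 0.440 FPKM in the ND rats. Among all genes tested, the genes with a symbol whose values over the 6 rats were closest to those of Nanos2 were SNORA19, RT1-M6-2 and Mir100, the first a small nucleolar RNA and the last a microRNA gene. The distance was the root mean square difference of log2 values centred on each gene's mean. It was 0.113, 0.123 and 0.128, as compared with a deviation of Nanos2 from its own mean of 0.418. Since these genes were picked as the closest of all genes tested, a small distance was built in. For each other member tested the closest gene lay nearer, from 0.0229 for Dmrt1 to 0.0884 for Stra8.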
